A study of Mus musculus with 8 samples.

Results

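The genes described here are those that make, sense and clear cyclic GMP (cGMP) downstream of nitric oxide and the natriuretic peptides. They were chosen by gene symbol: the nitric oxide synthases Nos1, Nos2 and Nos3, the soluble guanylate cyclase subunits Gucy1a1 and Gucy1b1, the cGMP-dependent protein kinase Prkg1, the phosphodiesterase Pde5a, the peptide gene Nppb and the receptors Npr1 and Npr2. All 10 were found among the 55213 gene lines of the count tables, and all 10 had the 10 counts over the 8 libraries that were required for testing, as did 26900 lines in all. RNA of whole retinas was sequenced, 1 library for each of 8 germ-free (GF) male C57B1/6 mice. The 4 GF-HFD mice (numbers 13, 15, 16 and 19) received a high-fat diet with 23% saturated fat for 8 weeks from 7 weeks of age, and the 4 GF-ND mice (9, 10, 11 and 12) received a normal diet over the same time. Both groups were 15 weeks old at the end, and neither had gut microbes, so every comparison holds for germ-free males only.

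Nitric oxide is a gas made from arginine. It diffuses into neighbouring cells and binds the heme of soluble guanylate cyclase, a dimer of an alpha and a beta subunit that then makes cGMP. Natriuretic peptides act from outside the cell on receptors that carry a cyclase of their own. In vascular smooth muscle cGMP relaxes the cell through its kinase, which widens the vessel. In the retina, neuronal nitric oxide synthase is known from a subset of amacrine cells, and nitric oxide acts on both neurons and vessels there. The diets were compared to ask how a high-fat diet acts on retinal transcription when gut microbes are absent.

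The libraries held 39258006 to 44357518 counts. Levels are given as CPM, the counts relative to the TMM-scaled size of each library, and as RPKM, which divides CPM by the kilobases of annotated exon, where levels of different genes are set side by side. Rod markers, which define the labelled tissue, summed to 54100 to 69900 CPM in GF-HFD libraries, against 31700 to 53300 CPM in GF-ND libraries. The groups did not overlap, and 7 of 7 rod markers were fitted higher (median log2 fold change 0.311). GF-ND mouse 11 had the lowest sum, at 31700 CPM. The part of this difference in the levels of the 10 genes was not tested. Markers of tissues next to the retina varied far more. Lens markers summed to 10280 CPM in GF-HFD mouse 19, to 57010 CPM in GF-ND mouse 11 and to 148 to 1396 CPM in the other 6. Several log2 fold changes that rest on GF-ND mouse 11, or on this mouse and GF-HFD mice 16 and 19, are also given without them.

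Nppb, which encodes the precursor of B-type natriuretic peptide, was the gene whose groups stood apart, and its promoter is shown for that reason together with those of the cyclase subunit genes, which had nearly equal levels. The sequences are RefSeq windows on GRCm38.p6 with 300 bases around an annotated start, and 8 of the 10 genes had 1 or more. Capitals mark GATA (the core bound by GATA factors), the TATA box TATAAA and the M-CAT element CATTCC, each searched on both strands.
Nppb: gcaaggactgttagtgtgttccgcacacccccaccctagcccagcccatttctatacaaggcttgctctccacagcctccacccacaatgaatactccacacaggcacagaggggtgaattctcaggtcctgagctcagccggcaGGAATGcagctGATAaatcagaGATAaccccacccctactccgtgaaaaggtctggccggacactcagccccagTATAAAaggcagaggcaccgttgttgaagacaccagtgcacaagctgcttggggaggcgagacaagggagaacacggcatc
Gucy1a1: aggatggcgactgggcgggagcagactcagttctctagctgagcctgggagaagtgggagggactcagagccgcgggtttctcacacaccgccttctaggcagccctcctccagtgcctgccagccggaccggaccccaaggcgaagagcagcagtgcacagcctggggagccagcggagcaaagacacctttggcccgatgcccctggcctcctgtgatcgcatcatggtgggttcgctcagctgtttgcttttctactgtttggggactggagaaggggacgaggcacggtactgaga
Gucy1b1: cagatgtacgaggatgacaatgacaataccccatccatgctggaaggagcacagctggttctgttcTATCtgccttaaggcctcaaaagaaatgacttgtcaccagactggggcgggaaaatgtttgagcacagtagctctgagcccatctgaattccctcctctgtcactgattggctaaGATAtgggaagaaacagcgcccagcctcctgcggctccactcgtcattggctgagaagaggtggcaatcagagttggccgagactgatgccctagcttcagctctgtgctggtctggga

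The Nppb window lies on the plus strand at chr4:147985650-147985949. It held 1 M-CAT match at -105, GATA matches at -94 and -83 and a TATA box at -31, counted to the leftmost base of the match from the RefSeq start (-1 is the base before it), with no overlap between them. The GENCODE vM21 gene starts at chr4:147985788, inside this window and ahead of these matches, so on that annotation they lie within the gene. Of 32851 windows of this length, 57.9% held GATA, 13.6% TATAAA and 14.7% CATTCC. Nppb was the only gene of the 8 with a TATAAA or a CATTCC match. The Gucy1a1 window (minus strand, chr3:82145601-82145900, the more upstream of its 2 starts) held 0 matches, the other window of this gene 4 GATA matches, of which 2 overlap, and that of Gucy1b1 (minus strand, chr3:82074662-82074961) held 2 GATA matches. The cyclic AMP response element TGACGTCA was also searched, was in 1.79% of all windows and had no match in these genes. Matches are letters only, and binding was not measured.

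On GRCm38 (GENCODE vM21) all 10 are protein-coding genes. The synthase genes lie at chr5:117781032-117958840 (Nos1), chr11:78920787-78960254 (Nos2) and chr5:24364810-24384474 (Nos3), the receptor genes at chr3:90450591-90465866 (Npr1) and chr4:43631935-43651244 (Npr2), Prkg1 at chr19:30564489-31765033 and Pde5a at chr3:122728947-122859374. Genes on the opposite strand share exon bases with several of them, namely 11.7% of those of Npr1 (Gm16048), 5.7% of Npr2 (Gm12473), 2.4% of Nos1 (Gm26995) and 0.559% of Pde5a (4930447N08Rik).

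The soluble cyclase subunits were by far the most abundant of these transcripts. Over the 8 retinas Gucy1b1 averaged 32.1 and Gucy1a1 31.3 RPKM, and their ranges overlapped. Npr2 followed at 9.94 RPKM and Prkg1 at 4.51 RPKM, and neither overlapped its neighbours, although Prkg1 in GF-ND mouse 11 (8.63 RPKM) came close to the lowest Npr2 value (8.71 RPKM). Nos3 (1.65 RPKM), Nos1 (1.62 RPKM) and Pde5a (1.39 RPKM) could not be ordered, since the ranges over the retinas overlapped. Npr1 averaged 0.638 RPKM and overlapped Pde5a, Nos1 and Nos3 at its upper end and Nppb at its lower end. Nppb (0.208 RPKM) and Nos2 (0.0877 RPKM) were at the bottom of the order, and their ranges overlapped.

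**Figure D1:**
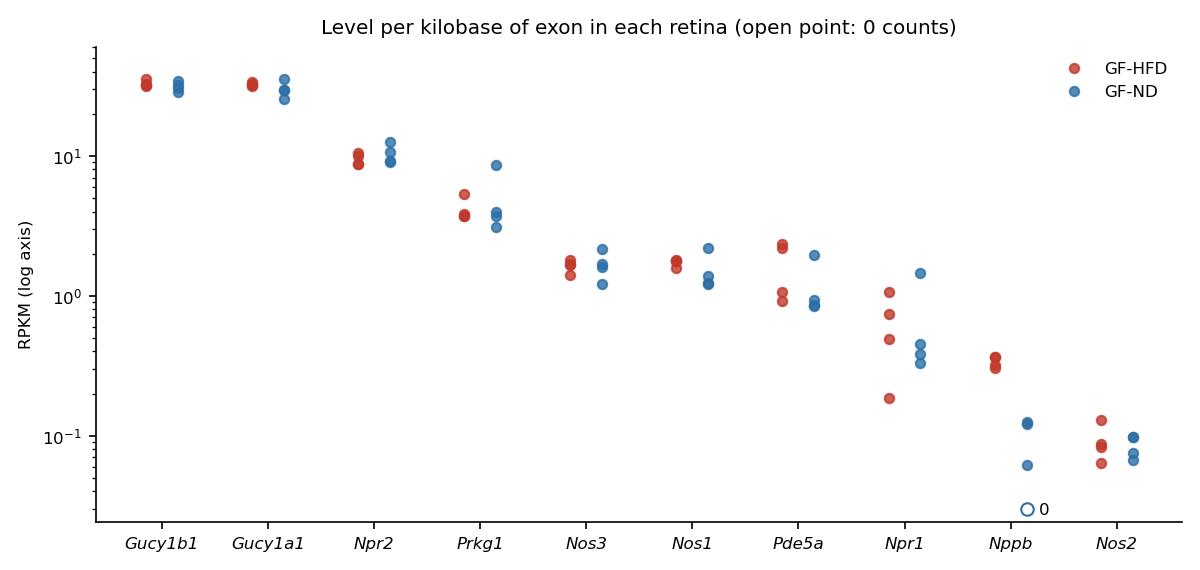
RPKM on a log axis (y) of the 10 genes (x, from high to low mean) in each GF-HFD and GF-ND retina, 1 point per mouse. Gucy1b1 and Gucy1a1 lie near 32.1 and 31.3 RPKM, and the open point marks GF-ND mouse 9, which had 0 counts of Nppb.

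Over the 10 genes the median log2 fold change (GF-HFD relative to GF-ND) was 0.083, with 6 fitted higher and 4 lower, beside a median of -0.028 over all 26900 genes tested. In edgeR's quasi-likelihood test 0 of the 10 were called at an adjusted p under 0.05, and 0 genes (0%) were called in the whole table. At an unadjusted p under 0.05 the count was 1 of 10 higher (Nppb) and 0 lower, where 2.85% of all genes were higher and 4.53% lower. The study also states a filter on genes under 10 CPM, which was left out of this fit. In edgeR 0 of the 10 met its other thresholds, an unadjusted p under 0.01 with a log2 fold change beyond 1. Of all genes 123 met them, and 23 of these (0.0855% of all genes) were higher. Nppb met them in limma-voom (log2 fold change 2.35, unadjusted p = 0.00603, adjusted p = 0.674) and in DESeq2 (2.12, unadjusted p = 0.00665). Over all 26900 genes tested, 121 met them in limma-voom and 200 in DESeq2, in either direction. Groups did not overlap in 1 gene, Nppb, which was higher in GF-HFD, beside 2.29% of all genes with GF-HFD above and 2.54% with GF-HFD below. Without GF-ND mouse 11 the median of the 10 was 0.21 with 8 fitted higher, and 4 were higher at an unadjusted p under 0.05 (Nos1, Gucy1a1, Pde5a and Nppb), beside 12.1% of all genes in that fit. Without GF-ND mouse 11 and GF-HFD mice 16 and 19 this count was 2, beside 7.28%. Of all genes tested 1985 had an unadjusted p under 0.05, limma-voom called 0 genes and DESeq2 53. None of the 10 genes was among those 53, although DESeq2 gave no adjusted p for Nppb and Nos2. Whole retinas were measured, so fewer cells of a type and less RNA per cell cannot be told apart.

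**Figure D2:**
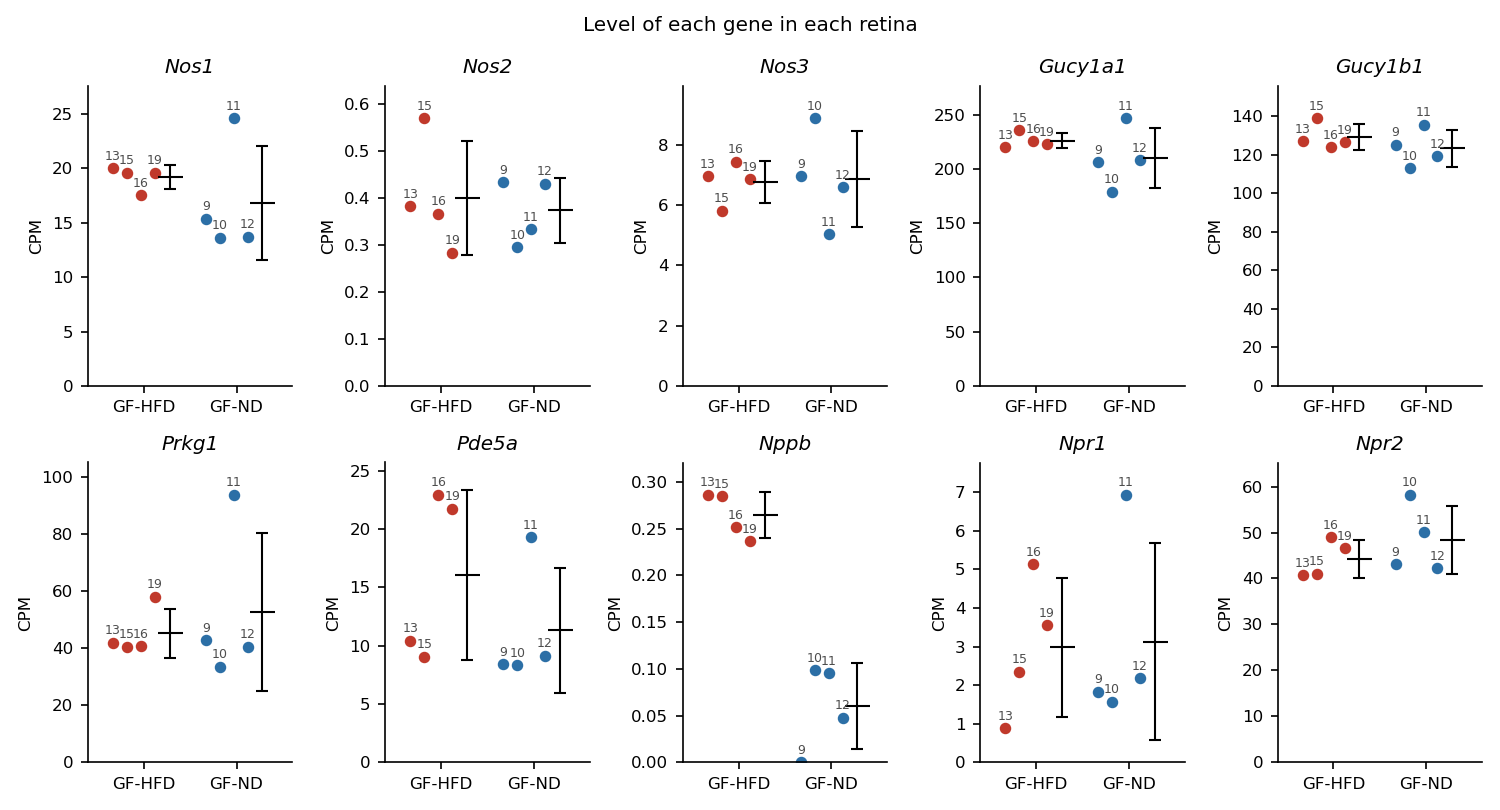
CPM (y axes, from 0) of each gene in GF-HFD and GF-ND retinas, with the mouse number above each point and the mean and SD of 4 mice beside them. Nppb is the panel in which the diets do not overlap, and GF-ND mouse 11 is highest of its group in Nos1, Prkg1, Pde5a and Npr1.

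Nppb had 12, 12, 11 and 10 counts in GF-HFD mice 13, 15, 16 and 19, against 0, 4, 4 and 2 counts in GF-ND mice 9, 10, 11 and 12. Every GF-HFD retina was above every GF-ND retina, and the 4 GF-HFD values lay close together. In CPM the mean was 0.265 ± 0.0248 in the GF-HFD group against 0.0604 ± 0.0465 in the GF-ND group (SD of n = 4 mice each). The log2 fold change was 2.08 (SE 0.72), or 4.23-fold, with an edgeR p of 0.0157 and an adjusted p of 0.649 over all genes tested. The study chose Nppb for its difference in these same libraries, so these values are a description and no independent evidence of it. In all there were 45 counts over the GF-HFD group and 10 over the GF-ND group. Of these 8 counts 7 were even, and over all genes even values from 1 to 12 outnumbered odd values by 1.91 to 2.36 times in each library, so these counts may not be independent fragments. For GF-ND mouse 9 a count of 0 allows a level of up to 0.0723 CPM, taking 3 independent counts as the floor and covering counting error only. If a fragment can give more than 1 count, this limit is too low. Over the alternatives its log2 fold change ran from 1.68 (without GF-ND mouse 9) to 2.50 (without GF-ND mouse 11 and GF-HFD mice 16 and 19). The gene lies on GRCm38 at chr4:147985788-147987205 (GENCODE vM21), has 3 exons with 781 bases and overlaps no other annotated gene. Markers of heart muscle, the main site of Nppb expression, summed to 4.23 to 5.77 CPM in GF-HFD libraries, against 2.14 to 6.67 CPM in GF-ND libraries, with 2 of 4 fitted higher and Myl7 at 0 in at least 1 library.

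The other natriuretic peptides were also measured on few counts. Nppa, the atrial peptide, had 0.272 ± 0.122 CPM in the GF-HFD group against 0.211 ± 0.0739 CPM in the GF-ND group (SD of n = 4 mice each), a log2 fold change of 0.36 (SE 0.52). Nppc, the C-type peptide that acts on Npr2, had 0.270 ± 0.0687 CPM and 0.168 ± 0.0637 CPM (log2 fold change 0.67, SE 0.48). Neither was called in edgeR (adjusted p = 0.872 and 0.727), and in both the groups overlapped. Corin, the protease that activates the atrial peptide, was at 0.0822 ± 0.0623 CPM in the GF-HFD group against 0.109 ± 0.0820 CPM in the GF-ND group.

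Among the receptors, Npr1 varied 4-fold or more within each diet. This receptor for the atrial and B-type peptides had 0.883, 2.35, 5.13 and 3.55 CPM in GF-HFD mice 13, 15, 16 and 19, against 1.83, 1.58, 6.93 and 2.18 CPM in GF-ND mice 9, 10, 11 and 12. GF-ND mouse 11 was highest of all, GF-HFD mice 16 and 19 came next, and the groups overlapped. The log2 fold change was -0.07 (SE 0.58, adjusted p = 0.982), and it was 0.67 (SE 0.44) without GF-ND mouse 11 and -0.20 (SE 0.39) without that mouse and GF-HFD mice 16 and 19. Npr2, the receptor for the C-type peptide, was steadier. It had 40.7, 41.0, 49.0 and 46.6 CPM in the GF-HFD mice, against 43.2, 58.2, 50.1 and 42.3 CPM in the GF-ND mice (log2 fold change -0.13, SE 0.12, adjusted p = 0.780). Npr3, the clearance receptor that binds these peptides and has no cyclase, was at 9.59 ± 3.56 CPM in the GF-HFD group against 8.65 ± 5.46 CPM in the GF-ND group. Within each library Npr2 had 9.52 to 44.8 times the counts of Npr1 in GF-HFD mice and 7.20 to 36.4 times in GF-ND mice. The mean log2 ratio was 4.14 ± 0.97 and 4.21 ± 0.99 (SD of n = 4 mice each), a difference of -0.07 (two-sided exact permutation test, p = 0.886).

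Of the synthases, the inducible enzyme was measured on few counts. Nos2, the synthase that macrophages make in inflammation, lay between 12 and 24 counts in the GF-HFD group and between 12 and 18 in the GF-ND group, and its log2 fold change was 0.10 (SE 0.36, adjusted p = 0.955). Nos3, the endothelial synthase, had 6.97, 5.82, 7.44 and 6.86 CPM in GF-HFD mice 13, 15, 16 and 19, against 6.97, 8.89, 5.03 and 6.60 CPM in GF-ND mice 9, 10, 11 and 12. The GF-HFD values lay within the range of the GF-ND values, and the log2 fold change was -0.02 (SE 0.18, adjusted p = 0.983). Markers of endothelium summed to 338 to 395 CPM in GF-HFD libraries, against 260 to 369 CPM in GF-ND libraries, with 9 of 10 fitted higher and none at 0. Of the exon bases of Nos3 25.2% are shared with the antisense gene Gm15587 and 7.12% with Atg9b on the opposite strand, and since no strand setting of the counting is given in the sources used here, their reads cannot be told apart.

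Nos1, the neuronal synthase, was higher in GF-HFD retinas than in 3 of the 4 GF-ND retinas. It had 20.0, 19.6, 17.5 and 19.6 CPM in GF-HFD mice 13, 15, 16 and 19, against 15.4, 13.6, 24.6 and 13.7 CPM in GF-ND mice 9, 10, 11 and 12. The groups overlapped through GF-ND mouse 11 alone. The log2 fold change was 0.19 (SE 0.19, adjusted p = 0.797), and without GF-ND mouse 11 it was 0.43 (SE 0.10, unadjusted p = 0.00135, adjusted p = 0.0575 in edgeR, just above the threshold). Without that mouse and GF-HFD mice 16 and 19 it was 0.49 (SE 0.13, adjusted p = 0.179). Markers of amacrine cells, the cells known for neuronal synthase, were ordered in a like way. They summed to 1113, 1116, 1036 and 1065 CPM in the GF-HFD mice, against 988, 981, 1225 and 872 CPM in the GF-ND mice, with 8 of 9 fitted higher and none at 0. Markers of ganglion cells had a like order, at 915, 953, 836 and 900 CPM in the GF-HFD mice, against 791, 748, 928 and 662 CPM in the GF-ND mice, with 8 of 8 fitted higher and none at 0. Most markers of other retinal cells were fitted higher too, so this direction is not particular to amacrine and ganglion cells. It held for 7 of 7 of rods, 5 of 5 of Mueller glia, 6 of 6 of microglia and macrophages and 5 of 7 of bipolar cells. Mueller glia markers summed to 3437, 3836, 3594 and 3686 CPM in the GF-HFD mice, against 3556, 3021, 3818 and 2836 CPM in the GF-ND mice. The part of any of these cells in the values of Nos1 was not tested. Nos1 made up 69.2 to 75.4% of the synthase counts in GF-HFD libraries, against 59.7 to 82.1% in GF-ND libraries. GF-ND mouse 11 had the 82.1%, and the other GF-ND libraries lay at 59.7 to 67.5%. The mean log2 ratio of Nos1 to Nos3 was 1.503 ± 0.211 in GF-HFD and 1.273 ± 0.713 in the GF-ND group (SD of n = 4 mice each), a difference of 0.23 (two-sided exact permutation test, p = 0.571) that was 0.57 without GF-ND mouse 11.

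The cyclase subunits differed between the diets by less than the spread of the GF-ND mice. Gucy1a1 had 220, 236, 226 and 223 CPM in the GF-HFD mice, against 206, 179, 247 and 208 CPM in the GF-ND mice. Gucy1b1 had 127, 139, 124 and 127 CPM in the GF-HFD mice, against 125, 113, 136 and 119 CPM in the GF-ND mice. GF-ND mouse 11 was the highest and mouse 10 the lowest of the GF-ND group for both genes, and the GF-HFD mice lay between them except for mouse 15 in Gucy1b1. The log2 fold change was 0.11 (SE 0.10, adjusted p = 0.787) for Gucy1a1 and 0.07 (SE 0.08, adjusted p = 0.842) for Gucy1b1. Without GF-ND mouse 11 they were 0.20 (SE 0.08, adjusted p = 0.165) and 0.12 (SE 0.07, adjusted p = 0.343). Within a library Gucy1a1 had 1.70 to 1.82 times the counts of Gucy1b1 in GF-HFD mice, against 1.58 to 1.82 times in GF-ND mice, and per kilobase the subunits were nearly equal. The mean log2 ratio was 0.81 ± 0.04 and 0.76 ± 0.09 (SD of n = 4 mice each), a difference of 0.05 (two-sided exact permutation test, p = 0.400). Of the 3 ratios tested none passed after adjustment (adjusted p = 0.856 to 0.886), and 4 mice against 4 allow no p under 0.0286. The genes lie 17737 bases apart on the minus strand of chromosome 3 (Gucy1a1 at chr3:82092427-82145789, Gucy1b1 at chr3:82032006-82074689). Gucy1a2, the other alpha subunit, was at 7.29 ± 0.629 CPM in the GF-HFD group against 6.62 ± 0.754 CPM in the GF-ND group.

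Downstream of cGMP, Pde5a and Prkg1 were each high in a few libraries, which came from both diets. Pde5a, which breaks down cGMP and is the target of sildenafil, had 10.4, 9.07, 22.9 and 21.7 CPM in GF-HFD mice 13, 15, 16 and 19, against 8.44, 8.35, 19.3 and 9.14 CPM in GF-ND mice 9, 10, 11 and 12. The values fell into a high level in GF-HFD mice 16 and 19 and GF-ND mouse 11 and a low level, at 8.35 to 10.4 CPM, in the other 5. The log2 fold change was 0.51 (SE 0.37, adjusted p = 0.731), 0.89 (SE 0.29, adjusted p = 0.116) without GF-ND mouse 11, and 0.19 (SE 0.16, adjusted p = 0.623) without all 3. Prkg1, the kinase that cGMP activates, had 41.9, 40.5, 40.6 and 58.1 CPM in the GF-HFD mice, against 42.8, 33.5, 93.7 and 40.5 CPM in the GF-ND mice. GF-ND mouse 11 and GF-HFD mouse 19 were above the other 6. The log2 fold change was -0.22 (SE 0.29, adjusted p = 0.860) with all mice, but 0.22 (SE 0.14) without GF-ND mouse 11 and 0.09 (SE 0.13) without all 3.

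The high values of Pde5a and Npr1 fell in the 3 libraries with the highest summed markers of the ciliary body and iris and of fibroblasts. Markers of the ciliary body and iris summed to 229 and 316 CPM in GF-HFD mice 16 and 19 and to 104 CPM in GF-ND mouse 11, and to 5.42 to 34.2 CPM in the other 5, with all 5 markers fitted higher. In GF-ND mouse 11 the high sum came from Mlana, Pmel and Tyrp1, so the list does not settle which tissue was sampled there. Optc (765 counts) and Wfdc1 (203 counts) were lower there than in GF-HFD mouse 15 (874 and 270) and GF-ND mouse 10 (882 and 279). Markers of fibroblasts summed to 217, 303 and 205 CPM in GF-HFD mice 16 and 19 and GF-ND mouse 11, and to 16.4 to 80.0 CPM in the other 5. Of the list, 7 of 9 were fitted higher and Lum was at 0 in at least 1 library. In GF-ND mouse 11 the fibroblast sum rested mainly on Ogn (4553 counts) and Pdgfra (2127 counts). Dcn (184 counts) was also above the other 5 libraries, while Fbln1 (1333), Col1a2 (212), Col1a1 (78) and Lum (4) were below GF-ND mouse 10. The lens list had another order, with 533 CPM in GF-HFD mouse 16 and 1396 CPM in GF-ND mouse 10. It was highest in the pair of libraries with the highest Prkg1 and had 0 of 9 markers fitted higher. Markers of pericytes and smooth muscle, cells known for both Prkg1 and Pde5a, summed to 66.7 to 120 CPM in GF-HFD libraries, against 59.6 to 219 CPM in GF-ND libraries, highest in GF-ND mouse 11, with 6 of 10 fitted higher and Cnn1 at 0 in at least 1 library. Of this list only Acta2 (3991 counts) and Pdgfrb (1978 counts) were highest in GF-ND mouse 11, and the other markers were higher in another library. The part of these tissues in the levels of Pde5a, Npr1 and Prkg1 was not tested.

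**Figure D3:**
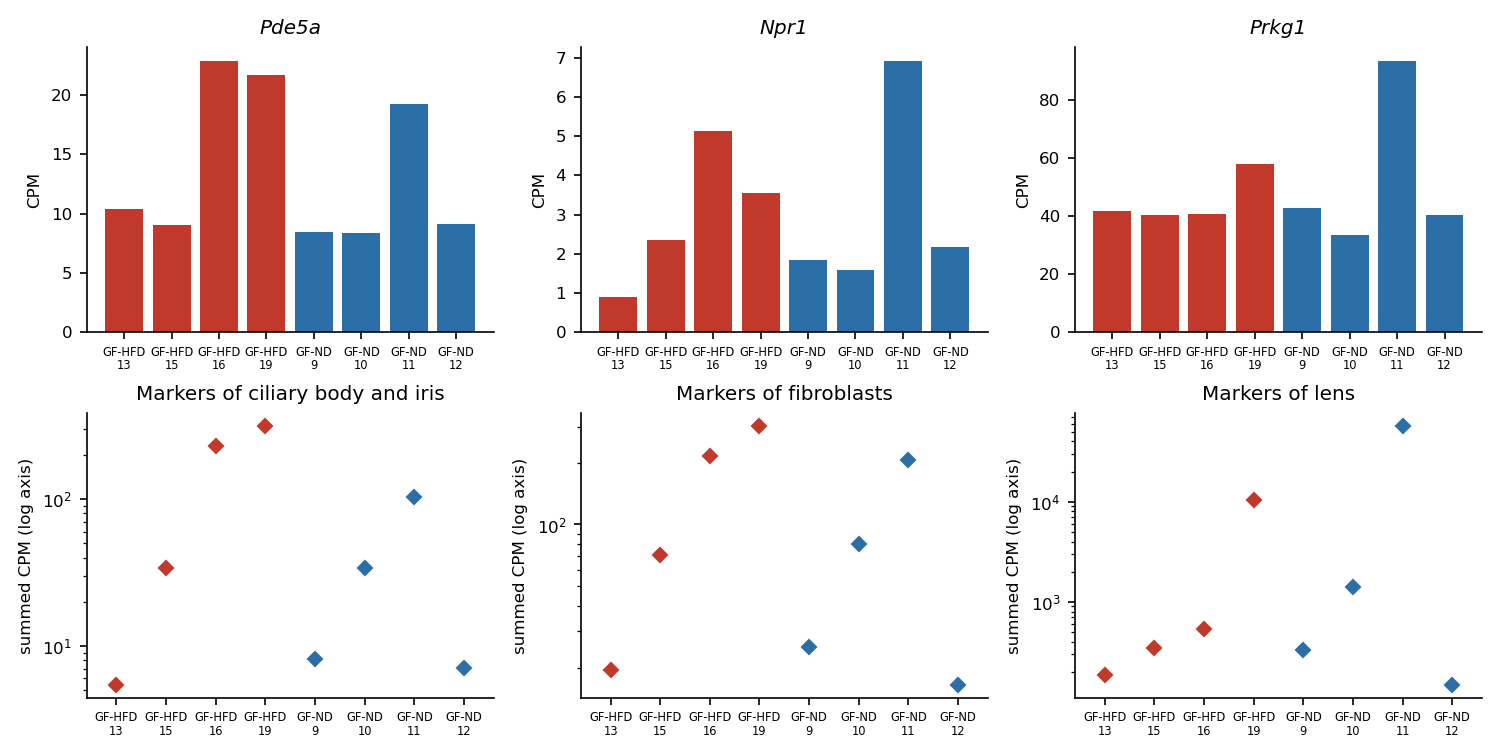
Top, CPM (y axes, from 0) of Pde5a, Npr1 and Prkg1 in each library. Bottom, summed CPM (log axes) of the marker lists of ciliary body and iris, fibroblasts and lens. GF-HFD mice 16 and 19 and GF-ND mouse 11 are highest for Pde5a, Npr1 and both lists of ciliary body and fibroblasts, and GF-ND mouse 11 and GF-HFD mouse 19 are highest for Prkg1 and the lens list.

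Pde5a and Npr1 were also the genes with at least 1 CPM and an SD over 0.5 log2 units, for which the nearest patterns were looked up. Likeness is the root-mean-square difference of log2 CPM over the 8 libraries after each gene's mean is removed, where 0 is the same pattern. Nearest to Pde5a were the bicarbonate cotransporter Slc4a4 (0.137 log2 units), Cobll1 (0.153) and Itpripl2 (0.157). Slc4a4 had at least 33.8 CPM in GF-HFD mice 16 and 19 and GF-ND mouse 11, and 13.4 to 16.6 CPM in the other 5. Among the nearest to Npr1 were the prostaglandin E synthase Ptges (0.301 log2 units) and the transporter Slc16a9 (0.313).

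**Figure D4:**
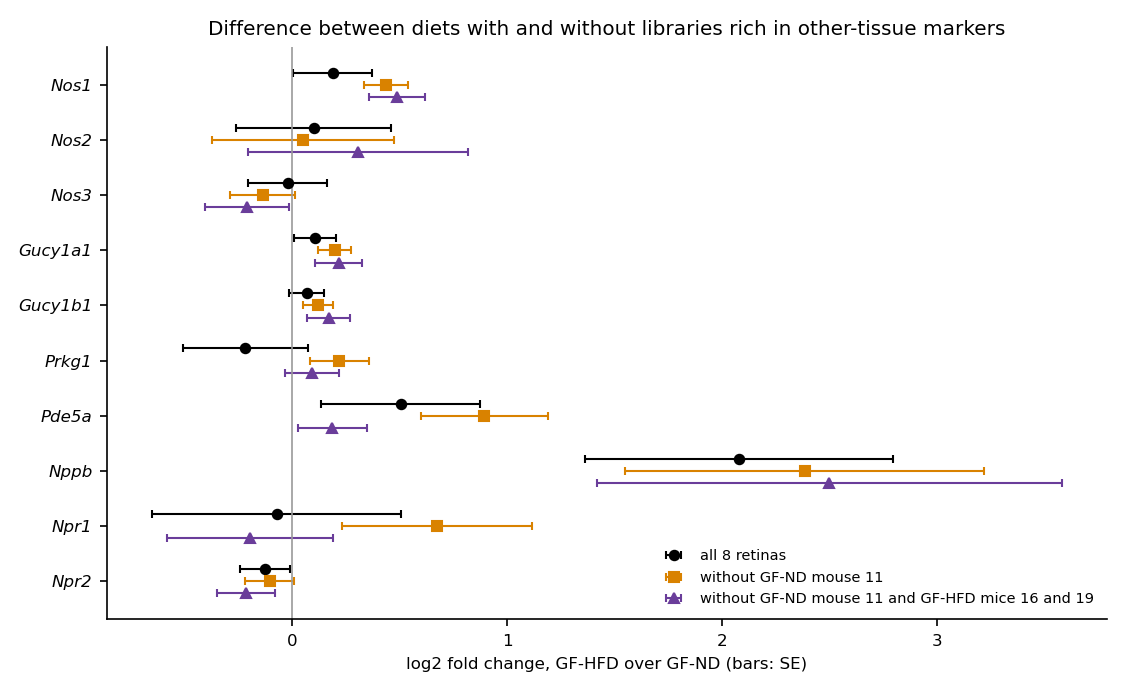
Log2 fold change, GF-HFD relative to GF-ND (x axis, bars are SE) for the 10 genes with all 8 retinas, without GF-ND mouse 11, and without GF-ND mouse 11 and GF-HFD mice 16 and 19. Nppb stays near 2.08 to 2.50, while Prkg1 and Npr1 change sign.

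A wider list held 45 further genes of these pathways, from arginine supply to cGMP breakdown. All 45 were tested and 0 were called at an adjusted p under 0.05 in edgeR. The median log2 fold change was 0.08, with 26 fitted higher and 19 lower. At an unadjusted p under 0.05 the count was 1 of 45 higher and 0 lower, beside 2.85% and 4.53% of all genes, so the list did not exceed the background. That gene was Pde1a, a calmodulin-dependent phosphodiesterase, at 15.4 ± 4.49 CPM in the GF-HFD group against 10.4 ± 2.78 CPM in the GF-ND group (SD of n = 4 mice each), a log2 fold change of 0.56 (SE 0.24, unadjusted p = 0.0389, adjusted p = 0.649), and its groups overlapped. Pde1a had 19.7 and 18.9 CPM in GF-HFD mice 16 and 19 and 14.4 CPM in GF-ND mouse 11, the libraries with the highest summed ciliary body and fibroblast markers. It had 8.37 to 11.7 CPM in the other 5. Its log2 fold change was 0.77 (SE 0.20, adjusted p = 0.0728) without GF-ND mouse 11 and 0.36 (SE 0.15, adjusted p = 0.302) without all 3, and the part of those tissues was not tested. Groups did not overlap in 1 of 45, beside 2.29% of all genes higher and 2.54% lower. This was Nosip, a protein that binds nitric oxide synthase, at 39.8 ± 1.18 CPM in the GF-HFD group against 35.5 ± 2.96 CPM in the GF-ND group (log2 fold change 0.17, SE 0.08, adjusted p = 0.655). Without GF-ND mouse 11 the counts at an unadjusted p under 0.05 were 8 higher and 1 lower, beside 12.1% and 11% of all genes in that fit, and 0 of the list were called at the adjusted p. These included Ddah1, which degrades an inhibitor of the synthases, at 0.28 (SE 0.09), the tetrahydrobiopterin enzyme Spr at 0.30 (SE 0.10) and Npr3 at 0.69 (SE 0.25), with adjusted p = 0.112, 0.119 and 0.140. Without GF-HFD mice 16 and 19 as well, Npr3 was at 0.15 (SE 0.18, adjusted p = 0.761). The lower one was Pts, also of tetrahydrobiopterin synthesis, at -0.18 (SE 0.08, adjusted p = 0.206). Without that mouse and GF-HFD mice 16 and 19 there were 6 higher and 0 lower, beside 7.28% and 8.29% of all genes.

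The most abundant genes of the wider list had small fold changes. The calcium-activated potassium channel Kcnma1 had 296 ± 23.0 CPM in the GF-HFD group against 314 ± 18.8 CPM in the GF-ND group (log2 fold change -0.08, SE 0.09). Those of the phosphodiesterases Pde3a (-0.03, SE 0.15) and Pde1b (0.02, SE 0.08), the protease Ide (-0.07, SE 0.13), the myosin phosphatase subunit Ppp1r12a (-0.09, SE 0.07) and the dynein light chain Dynll1 (0.10, SE 0.13) had adjusted p of 0.746 to 0.970 in edgeR. Pde3a was at 0.16 (SE 0.08, adjusted p = 0.236) without GF-ND mouse 11 and at 0.24 (SE 0.10, adjusted p = 0.293) without GF-HFD mice 16 and 19 as well. Genes of the arginine supply varied between mice. Ass1, which regenerates arginine from citrulline, was at 40.9 ± 22.2 CPM in the GF-HFD group against 66.9 ± 79.2 CPM in the GF-ND group, and the arginine transporter Slc7a2 at 57.3 ± 36.1 CPM and 87.8 ± 100.5 CPM (SD of n = 4 mice each). GF-ND mouse 11 was far above the other GF-ND mice in both, at 185.6 CPM for Ass1 (others 24.6 to 32.3) and 238.2 CPM for Slc7a2 (others 27.9 to 42.7). For Ass1 the log2 fold change was -0.71 (SE 0.66) with all mice, 0.58 (SE 0.30) without GF-ND mouse 11 and 0.13 (SE 0.14) without that mouse and GF-HFD mice 16 and 19. For Slc7a2 it was -0.61 (SE 0.66), 0.61 (SE 0.35) and -0.02 (SE 0.17) in the same order of fits.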

How the data were processed

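Whole-retina RNA of 8 mice was sequenced as paired reads of 100 bases. Per the labels and methods, the authors aligned the reads with STAR 2.4.2 to GRCm38, counted them per gene on GENCODE vM23 with featureCounts (Subread 1.4.6-p1), and deposited raw counts with no scaling and no filter. Strand setting and treatment of multimapping reads are not given in the sources used here.

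From these counts, genes whose sum over the 8 libraries reached 10 were scaled by TMM and compared by the quasi-likelihood test of edgeR 4.0.16 in R 4.3.3, with Benjamini-Hochberg adjustment over all genes tested. An SE is the size of the log2 fold change divided by the square root of its F statistic. Log2 CPM used a prior count of 2. Ratios of genes within a library (1 count added to each) were compared by a two-sided exact permutation test. Positions, exon lengths and overlaps are from GENCODE vM21 on GRCm38, and promoter windows are from RefSeq.

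The genes named are the 10 members and, of 45 further pathway genes, those past an unadjusted p of 0.05, those whose groups did not overlap and the 6 most abundant. For members with a mean of at least 1 CPM and an SD above 0.5 log2 units, the 3 genes with the nearest pattern are named, except 1 that is not reported here. Nppa, Nppc, Corin, Npr3, Gucy1a2, Ass1, Slc7a2, Ddah1, Spr and Pts were chosen for their role or after their values were seen. Members, gene and marker lists were chosen with earlier results of these data known. Alternatives were RLE and upper-quartile factors, library totals, no filter, filterByExpr, 10 CPM in at least 4 libraries, DESeq2 1.42.0, limma-voom (limma 3.58.1), robust dispersion, pseudocounts of 0.5 and 5 for ratios, each mouse left out, and GF-ND mouse 11 with GF-HFD mice 16 and 19 left out.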

Additional observations from a re-analysis of the deposited data

Results flagged for a closer look

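The groups of 4 mice checked (10 genes and 3 ratios in each diet) share the same 8 mice, and the ratios reuse the genes. They are not independent, so their count is not set against the 1 in 20 that chance gives for independent groups. In 6 of these 26 groups 1 mouse lay far from the other 3. In GF-ND retinas this was mouse 11 each time, at 24.6 CPM for Nos1 (others 13.6 to 15.4), 93.7 CPM for Prkg1 (others 33.5 to 42.8), 19.3 CPM for Pde5a (others 8.35 to 9.14) and 6.93 CPM for Npr1 (others 1.58 to 2.18). In GF-HFD retinas Prkg1 was at 58.1 CPM in mouse 19 (others 40.5 to 41.9), and Nos1 at 17.5 CPM in mouse 16 (others 19.6 to 20.0).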

How the results depend on the processing

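The log2 fold changes of Nos1, Gucy1a1, Gucy1b1, Pde5a, Nppb and Npr2 kept their direction under all alternatives that tested them, and their adjusted p stayed above 0.05 wherever one was given (DESeq2 gave none for Nppb). Nppb ran from 1.68 to 2.50, with adjusted p of 0.131 to 0.927, and was not tested with filterByExpr or at 10 CPM, where fewer genes remained, so the count of members with groups apart was 0 there. The sign turned for Nos3 in limma-voom (0.0052). It also turned without GF-ND mouse 11 and GF-HFD mice 16 and 19 for Prkg1 (0.092) and for the log2 ratio of Npr2 to Npr1 (0.14). With 1 mouse left out, Nos2 ran from -0.12 to 0.23, Nos3 from -0.14 to 0.12, Npr1 from -0.47 to 0.67, Prkg1 from -0.39 to 0.22 and the ratio of Npr2 to Npr1 from -0.52 to 0.26. The cause was not tested.

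Genes called over the whole table numbered 53 in DESeq2, and 0 to 421 with 1 mouse left out (421 without GF-ND mouse 11). Genes at an unadjusted p under 0.01 with a log2 fold change beyond 1 numbered 123, 5 at 10 CPM, 200 in DESeq2, 246 without the 3 mice and 65 to 353 with 1 mouse left out. Genes with groups apart numbered 1298, and 475 at 10 CPM. Of the wider list, the count at an unadjusted p under 0.05 was 2 with RLE factors, library totals, upper-quartile factors, filterByExpr, 10 CPM and DESeq2, 6 without the 3 mice and 0 to 9 with 1 mouse left out. Depth limits Nppb, Nos2, Nppa, Nppc and Corin, which are measured on few counts.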
